A study of Homo sapiens with 12 samples.

Results

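The genes A2M, ACOX2 and PLEKHS1 were examined in 624Mel cells, a human melanoma line, as 3 of the 40173 gene IDs of the deposited expression table. They were chosen by their measured levels, since each was highest in cells that received both MITF knockdown and IFNγ, and they are described here against the sum and the product of the single effects. Their levels, fold changes and departures are therefore given without a test. All 3 genes passed the filter for testing, as did 12773 IDs in all, which asked for a mean level of 2 TPM or more in any condition. TPM is a relative abundance corrected for transcript length. In the table no other ID had values identical to theirs.

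RNA was sequenced from 12 libraries in 4 conditions of 3 libraries each. Cells received a control siRNA (siCTRL) or an siRNA against MITF (siMITF) and, 24 h later, either no IFNγ or IFNγ at 5 ng/mL for 24 h. Every condition used the same line, and no stable MITF mutant or second line was part of these libraries. The labels number the libraries 1 to 3 in each condition without saying whether these were separate cultures. The study's methods state at least 3 independent biological replicates for its experiments. Unless the libraries were separate cultures, the spread below may be partly technical.

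MITF is the transcription factor that maintains the melanocyte lineage, and its loss moves melanoma cells towards a less differentiated state. IFNγ is a cytokine that signals through JAK kinases and STAT proteins, which bind palindromic GAS elements (interferon gamma-activated sites) near the genes they activate. A2M encodes alpha-2-macroglobulin, a large secreted protein that traps proteases of many classes and is cleared by the receptor LRP1. It is made mainly in liver. ACOX2 encodes a peroxisomal acyl-CoA oxidase that acts on branched fatty acids and shortens the side chain of bile acid precursors. PLEKHS1 encodes a protein with a pleckstrin homology domain, a fold that often binds membrane lipids, and its function is little characterised.

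MITF itself ranged from 187 to 229 TPM in siCTRL, from 158 to 246 TPM in siCTRL + IFNγ, from 36.0 to 49.7 TPM in siMITF and from 37.5 to 55.1 TPM in siMITF + IFNγ, so the knockdown was present in every siMITF library. The summed level of 6 melanocytic markers was 7089 to 9472 TPM without the knockdown and 2096 to 2601 TPM with it. Markers of liver cells, which make A2M and ACOX2 in the body, were close to absent, with a summed level of at most 0.903 TPM over 8 genes in any library. The 5 endothelial markers summed to at most 0.814 TPM. Fibroblast markers summed to 2.70 to 8.77 TPM over 6 genes, most of it LUM, and 5 immune markers to 1.68 to 5.53 TPM, most of it LYZ, with CD3E at 0 in all libraries. Mitochondrial transcripts took 7.42% to 14.8% of TPM in siCTRL, 8.45% to 16.9% in siCTRL + IFNγ, 10.1% to 14.0% in siMITF and 12.7% to 16.9% in siMITF + IFNγ, and their part in the results was not tested. In bulk RNA, fewer expressing cells and less RNA per cell cannot be told apart.

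On GRCh38 with GENCODE 44, A2M (ENSG00000175899) lies on chromosome 12 from 9067664 to 9116229 on the minus strand. ACOX2 (ENSG00000168306) lies on chromosome 3 from 58505136 to 58537283 on the minus strand, and PLEKHS1 (ENSG00000148735) on chromosome 10 from 113751262 to 113783429 on the plus strand. A2M overlaps the antisense transcript A2M-AS1, which was not analysed here. The library kit keeps no strand, so reads from the 2 cannot be told apart where they overlap.

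RefSeq promoter windows (GRCh38.p14) matched 1 of the 3 genes, PLEKHS1, with 2 windows of 250 bases before an annotated start; A2M and ACOX2 had no entry. Both strands were searched for the GAS motif TTCNNNGAA, for the core of the interferon-stimulated response element, which is GAAA repeated after any 2 bases, and for the E-boxes CACGTG and CATGTG, the latter being letters that MITF can bind. Of 35116 windows of that length, 6.57% held a GAS match, 3.02% the response element core, 6.34% CACGTG and 9.42% CATGTG. The window before the more upstream start of PLEKHS1 held no match of any of these and overlapped exons of 3 of the gene's 10 annotated transcripts. The window before the internal start, chr10:113764569-113764818 on the plus strand, overlapped no PLEKHS1 exon, so it is intronic for the longer transcripts. It is shown because it held the only match, a GAS motif at positions -216 to -208 from the start, in capitals below.
PLEKHS1 internal start window: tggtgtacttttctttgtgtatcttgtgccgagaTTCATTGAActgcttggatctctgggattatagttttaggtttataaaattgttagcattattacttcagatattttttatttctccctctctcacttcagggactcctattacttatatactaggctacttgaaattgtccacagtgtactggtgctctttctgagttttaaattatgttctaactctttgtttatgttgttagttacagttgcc
A match is a description of these letters and not of binding. The values are summed over the gene and do not tell which start was used.

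A2M, the protease trap, had the highest level of the 3 genes in every condition. It was measured at 2.17, 2.88 and 2.59 TPM in siCTRL replicates 1, 2 and 3, a mean of 2.55 ± 0.356 (SD, n = 3). With siMITF alone it was 7.02, 7.97 and 6.67 TPM, a mean of 7.22 ± 0.673. With IFNγ alone it was 75.5, 111 and 105 TPM, a mean of 97.3 ± 19.1. These 3 conditions did not overlap, and IFNγ was by far the stronger of the single treatments. In siMITF + IFNγ cells A2M was 365, 455 and 488 TPM, a mean of 436 ± 63.8, with the lowest combination library more than 3 times the highest library of any other condition. Among the 12773 tested IDs, A2M moved from rank 11524 by mean level in siCTRL to rank 265 in the combination. In folds of the mean TPM, A2M was 2.83 times siCTRL with siMITF, 38.2 times with IFNγ and 171 times with both. The IFNγ fold was 60.4 within siMITF cells, and the gain in TPM was 94.7 in siCTRL cells against 429 in siMITF cells.

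ACOX2, the peroxisomal oxidase, followed the same order of conditions at lower levels. Its siCTRL libraries held 0.354, 0.308 and 0.419 TPM, a mean of 0.360 ± 0.0554 (SD, n = 3). The siMITF libraries held 2.37, 2.34 and 2.22 TPM, a mean of 2.31 ± 0.0781, and the siCTRL + IFNγ libraries 5.24, 7.07 and 6.51 TPM, a mean of 6.27 ± 0.938. No 2 of these conditions overlapped. In siMITF + IFNγ libraries ACOX2 was 17.3, 17.4 and 17.9 TPM, a mean of 17.5 ± 0.322, and its libraries were tightly grouped. The folds over siCTRL were 6.41 with siMITF, 17.4 with IFNγ and 48.6 with both. ACOX2 differed from A2M in that its IFNγ fold was smaller after MITF knockdown, 7.58 within siMITF cells, although the gain in TPM rose from 5.91 to 15.2. This direction turned with a pseudocount of 1, where the IFNγ effect on ACOX2 was 2.41 on the log2 scale in siCTRL cells and 2.48 in siMITF cells.

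PLEKHS1, the pleckstrin homology protein, was barely measured in 3 of the 4 conditions. It was listed at 0 in siCTRL replicate 1 and at 0.0902 and 0.0440 TPM in replicates 2 and 3. With siMITF it was 0.0984, 0.169 and 0.0591 TPM, which overlapped siCTRL, and with IFNγ it was 0.381, 0.401 and 0.155 TPM, which overlapped siMITF but not siCTRL. In siMITF + IFNγ libraries it was 4.68, 4.87 and 4.84 TPM, a mean of 4.80 ± 0.103 (SD, n = 3). PLEKHS1 passed the filter for testing through the combination alone, so its low level in the other conditions follows from the filter and from how it was chosen. The mean with IFNγ alone was 6.52% of the combination mean for PLEKHS1, against 22.3% for A2M and 35.9% for ACOX2. The means with siMITF alone were 2.27%, 1.66% and 13.2% of it. The folds over siCTRL, which rest on siCTRL libraries near 0 TPM, were 2.44 with siMITF, 6.99 with IFNγ and 107 with both.

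**Figure D1:**
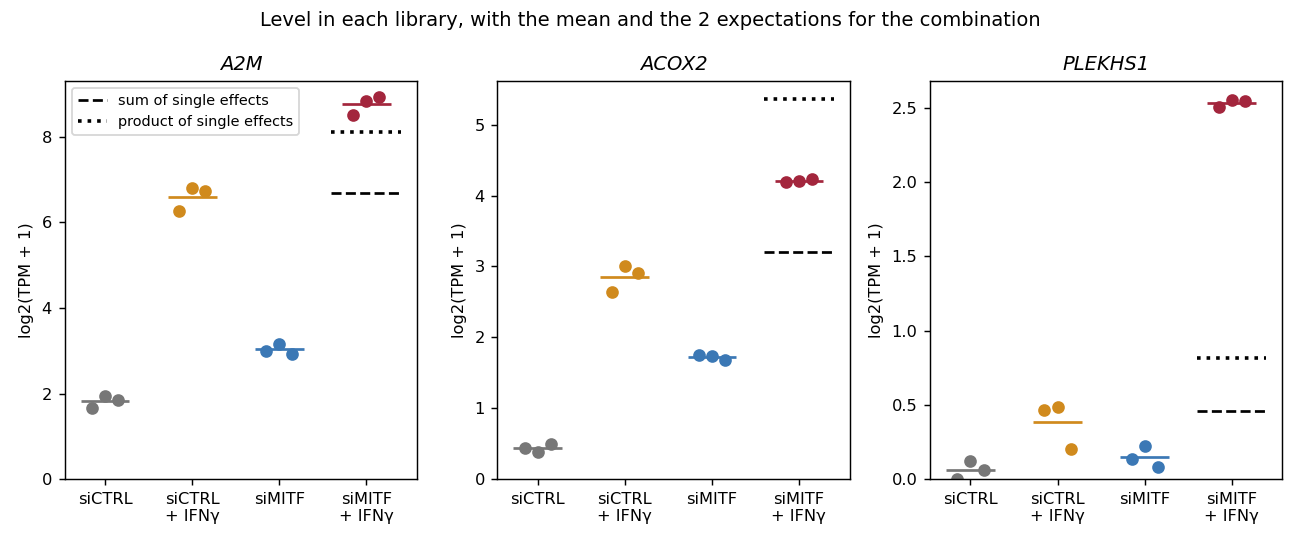
Level of A2M, ACOX2 and PLEKHS1 in each library as log2(TPM + 1), with 3 libraries (points) and their mean (line) in each condition, and with the level expected in siMITF + IFNγ from the sum (dashed) and the product (dotted) of the single effects. The combination libraries of A2M and PLEKHS1 lie above both expectations, and those of ACOX2 lie between them. Each panel has its own vertical scale.

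For all 3 genes the order of the mean levels was siCTRL, siMITF, siCTRL + IFNγ and siMITF + IFNγ, and the combination libraries lay above the other 9. Of all tested IDs, 4.92% had all combination libraries above the other 9, a pattern on which these genes were selected.

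If the treatments added up in TPM, the combination would be the sum of the single levels minus the control level. That expectation was 102 TPM for A2M, 8.22 TPM for ACOX2 and 0.377 TPM for PLEKHS1. The measured means were 4.28, 2.13 and 12.7 times these sums. With a pseudocount of 1 the PLEKHS1 departure from the sum fell from 3.67 to 2.07 on the log2 scale. All 3 genes were thus at least 2-fold above the sum, as were 2.0% of tested IDs, and nothing is read from this count since the rule used it. Within replicate numbers 1, 2 and 3 the ratio to the sum was 4.54, 3.92 and 4.46 for A2M and 2.38, 1.91 and 2.15 for ACOX2. For PLEKHS1 it was 9.75, 10.1 and 28.4, the last where the IFNγ library was at 0.155 TPM. Each of these 9 ratios lay above 1, and their order was PLEKHS1, A2M and ACOX2 at every number.

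If the treatments multiplied, each fold change would apply on top of the other. The product expectation was 276 TPM for A2M, 40.2 TPM for ACOX2 and 0.761 TPM for PLEKHS1. Against it, the genes parted. A2M was at 1.58 times the product, with 1.49, 1.48 and 1.80 within the replicate numbers. PLEKHS1 was at 6.30 times the product, with 6.46 and 23.2 at numbers 2 and 3 and no value at number 1, where siCTRL was listed at 0. ACOX2 was at 0.435 times the product, with 0.492, 0.324 and 0.517, so that its combination was above the sum and below the product. Of the 12763 tested IDs with a defined product, 2.37% were at least 1.5-fold above it, as A2M and PLEKHS1 were, and 2.58% at least 1.5-fold below it, as ACOX2 was.

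The control level sets the product, and this matters most for PLEKHS1. Without siCTRL replicate 2 its ratio to the product was 3.10, and without siCTRL replicate 1 it was 9.45. With a pseudocount of 1 added to every value, the departure of ACOX2 from the product moved from -1.20 to 0.072 on the log2 scale, so the sign of its departure from the product depends on the pseudocount at these low control levels. On that log2(TPM + 1) scale the departure from the product is the interaction, and it was 0.95 (SE 0.21) for A2M, 0.072 (SE 0.15) for ACOX2 and 2.06 (SE 0.15) for PLEKHS1.

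**Figure D2:**
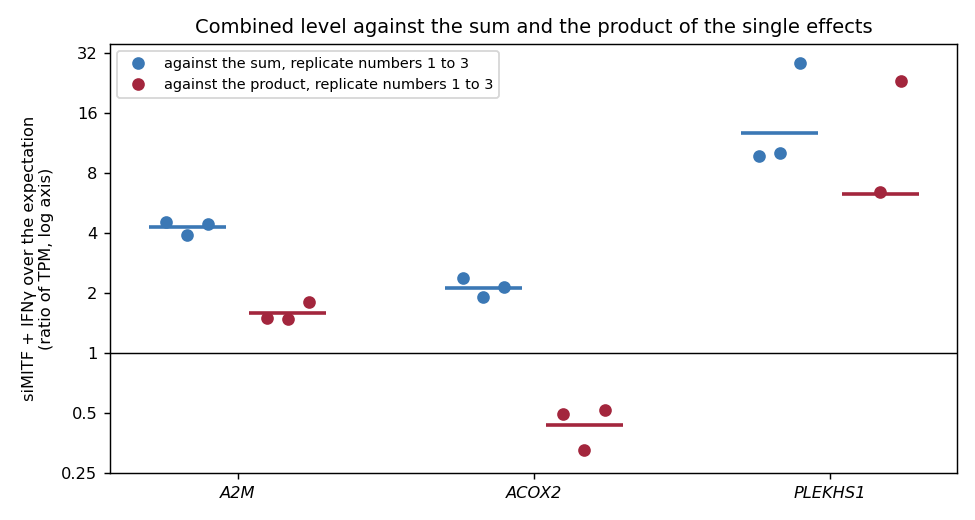
Ratio of the level in siMITF + IFNγ to the level expected from the sum (blue) and the product (red) of the single effects, on a log axis, for replicate numbers 1 to 3 (points, left to right) and for the means of the conditions (bars). A2M and PLEKHS1 lie above 1 for both, while ACOX2 lies above 1 for the sum and below 1 for the product. PLEKHS1 has no product value at number 1, where siCTRL was listed at 0.

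To place the genes beside others that responded to both treatments, the IDs called higher with each single treatment were listed. A call here means an adjusted p under 0.05 in limma, a log2 change of 1 or more in size, and 2 TPM or more on average in 1 of the conditions compared. With siMITF 3.22% of tested IDs were called higher and 2.88% lower, and with IFNγ 2.42% higher and 0.102% lower. Apart from A2M, ACOX2 and PLEKHS1, which are set beside them by their ratios and not by a call, 19 IDs were called higher with both. These 19, among them IFITM1, CCL2, TNC and IFI30, had a median ratio of 1.38 to the sum (range 0.703 to 2.48) and of 0.606 to the product (range 0.266 to 0.887). In mean TPM all 19 were below the product and 17 were above the sum. With a pseudocount of 1, SERPINB2 and ATP1B2 were above the product, by 0.24 and 0.063 on the log2 scale. ACOX2, at 2.13 and 0.435, lay within both ranges, whereas A2M, at 4.28 and 1.58, lay outside both. These are descriptions, as A2M and ACOX2 were selected on these measures.

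**Figure D3:**
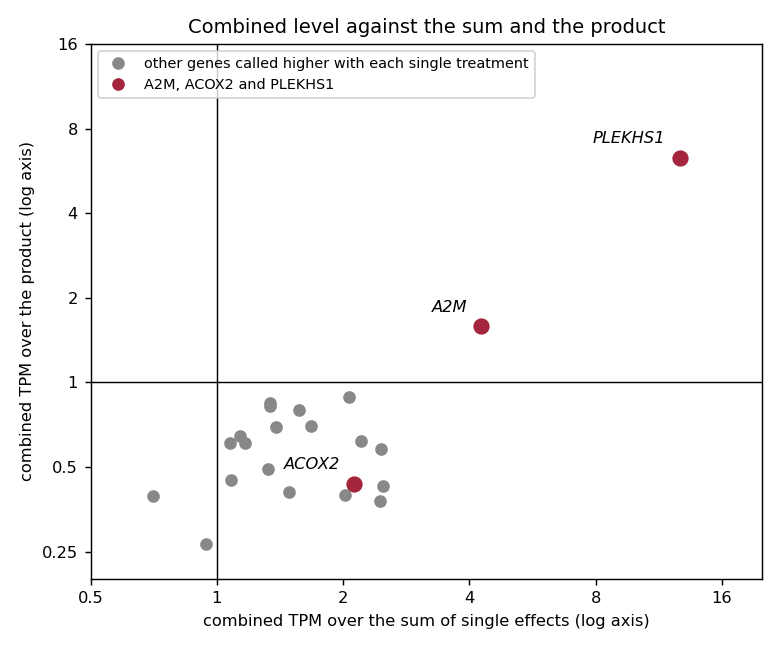
Ratio of the combined level to the sum (horizontal, log axis) and to the product (vertical, log axis) for 19 genes called higher with siMITF and with IFNγ (grey) and for A2M, ACOX2 and PLEKHS1 (red), from mean TPM without a pseudocount. The grey genes and ACOX2 lie below a product ratio of 1, and A2M and PLEKHS1 lie above it.

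The genes whose levels ran most like each member over the 12 libraries were taken by Pearson's r of log2(TPM + 1), as a description over libraries that share their conditions. For A2M these were PSME1 (r = 0.996), PLCH1 (0.994), LRP2 (0.994), PSME2 (0.993) and GOLM1 (0.993). For ACOX2 they were GSTK1 (r = 0.994), CD47 (0.991), SOCS1 (0.990), CASP4 (0.988) and STX4 (0.988). PSME1 and PSME2 encode proteasome activator subunits, and SOCS1 an inhibitor of cytokine signalling. For PLEKHS1 they were PHF24 (r = 0.990), HLA-DMB (0.975), IL15RA (0.972), HLA-DPA1 (0.967) and BCAP29 (0.955). HLA-DMB and HLA-DPA1 belong to the MHC class II system, and IL15RA is a cytokine receptor chain. PHF24 rose from a mean of 0.174 TPM in siCTRL to 3.25 TPM in the combination. It was at 0.401 TPM under IFNγ and 0.157 TPM under siMITF. Like PLEKHS1, PHF24 passed the filter for testing through the combination alone, and it was picked for its likeness to PLEKHS1. Its low level in the other conditions follows from this. The same holds for HLA-DMB, IL15RA and HLA-DPA1. Between the members r was 0.980 for A2M and ACOX2, 0.838 for A2M and PLEKHS1 and 0.848 for ACOX2 and PLEKHS1.

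The genes beside each member were examined to see whether a wider stretch of chromosome moved with it. Of the 10 nearest measured genes of A2M, 3 could be tested and 0 were called by limma in any contrast. However, 2 had an unadjusted p under 0.05 in at least 1 contrast, both lower in the combination. M6PR changed by -0.74 on the log2 scale with siMITF (limma adjusted p = 7.2e-05) and by -0.63 in the combination (adjusted p = 0.000197). It missed a call by its size alone. Among the neighbours that could not be tested was PZP, a close relative of A2M, with a mean of at most 0.106 TPM in any condition. The pseudogene A2MP1 reached a mean of at most 0.0508 TPM. No neighbour of A2M, tested or not, came near its rise. Of the 10 around PLEKHS1, 5 could be tested and 0 were called by limma, while 4 had an unadjusted p under 0.05 in at least 1 contrast. With siMITF alone 2 were higher and 0 lower at that p. TCF7L2 rose by 0.77 on the log2 scale with siMITF (limma adjusted p = 0.000166), below the size asked of a call.

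ACOX2 differed in having a neighbour that was called higher. Of 11 neighbours, including the overlapping pseudogene RPL27P9, 6 could be tested. Of these, 5 had an unadjusted p under 0.05 in at least 1 contrast. CFAP20DC changed by -0.72 on the log2 scale with IFNγ (limma adjusted p = 0.000325) and by -0.74 in the combination (adjusted p = 7.4e-05). PXK rose by 0.52 with IFNγ within siMITF cells (adjusted p = 0.00101). Both genes stayed below the size asked of a call. KCTD6, which encodes an adaptor of cullin ubiquitin ligases, lies 2.78 kb away on the opposite strand. It was 8.53, 8.15 and 7.37 TPM in siCTRL, 14.9, 14.6 and 13.9 TPM in siCTRL + IFNγ, 10.1, 9.41 and 9.15 TPM in siMITF and 23.8, 20.3 and 19.0 TPM in siMITF + IFNγ. It rose with the combination by 1.29 on the log2 scale (SE 0.10, limma adjusted p = 3.6e-07) and by 1.06 with IFNγ within siMITF cells. With IFNγ alone its log2 change was 0.78 (adjusted p = 0.000125), below the size asked of a call, and the interaction was 0.28 (adjusted p = 0.707). FAM107A, 26.8 kb away, was below the level tested and had means of 0.0297, 1.93, 0.0210 and 1.10 TPM, higher under IFNγ but without the further gain after knockdown seen for ACOX2.

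**Figure D4:**
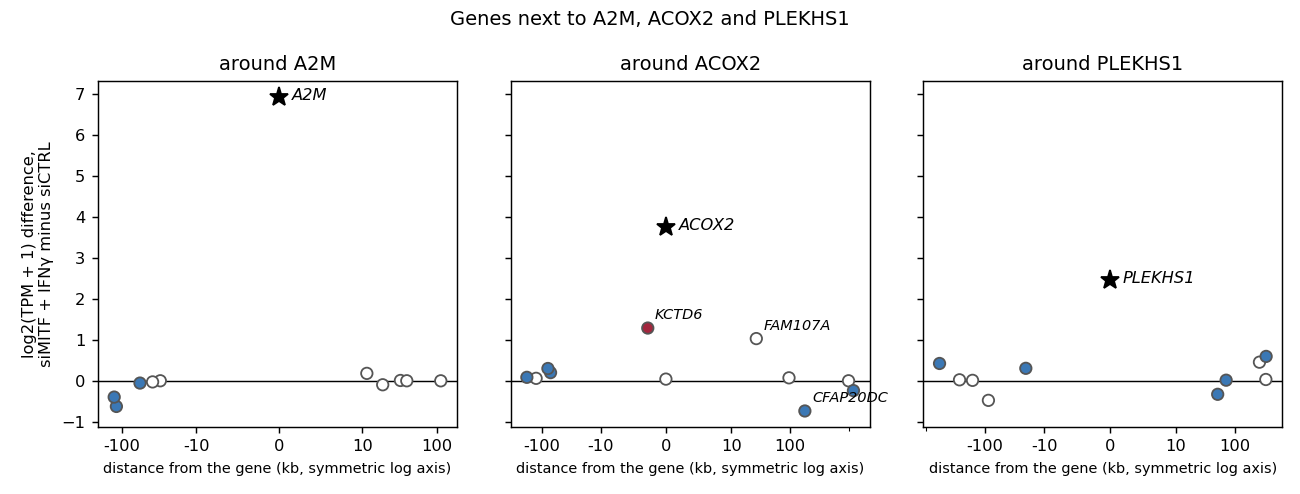
Difference in log2(TPM + 1) of the mean level between siMITF + IFNγ and siCTRL for A2M, ACOX2 and PLEKHS1 (stars at 0 kb) and their nearest measured genes by distance (symmetric log axis), with tested genes in blue, called genes in red and genes that were not tested in white. KCTD6, 2.78 kb from ACOX2, is the called neighbour.

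Genes of 6 lists around the members' functions, 144 genes in all, were read against all tested genes. In the combination 5.61% of tested IDs were called higher and 3.13% lower. For IFNγ within siMITF cells the shares were 2.72% and 0.227%, and for the interaction, called at an adjusted p under 0.05 and a size over 1, they were 0.391% higher and 0.0861% lower. Of the list genes, 19 were called in the combination, in either direction. Not all 144 were tested, and the lists were chosen with earlier results of these data known. Nothing is read from this total, and the number tested is given with each list below.

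The A2M family and its receptor held 10 genes, of which 6 were tested and 3 were called higher in the combination. None was called lower by limma, with 2 lower at an unadjusted p under 0.05. The called genes were the complement proteins C3, C4A and C4B, which belong to the same protein family. The list's median log2 change was 1.66, against -0.04 over all tested genes. The called genes changed by 3.35 to 6.19 and the uncalled ones by -0.50 to -0.03, so the median fell in the gap between them. C3, on which the complement pathways converge, was 0.255, 0.0671 and 0.177 TPM in siCTRL, 2.09, 3.98 and 3.63 TPM with IFNγ, 0.296, 0.219 and 0.0731 TPM with siMITF and 7.20, 13.6 and 12.9 TPM with both. C4B was 34.8, 36.8 and 26.7 TPM with IFNγ and 94.3, 77.0 and 80.3 TPM with both, and at most 0.386 TPM in any library without IFNγ. C3 and C4B were highest with both treatments and were not called with siMITF alone.

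The interaction was called for C4B at 1.23 (SE 0.20, limma adjusted p = 0.00886) and for C3 at 1.48 (SE 0.31, adjusted p = 0.0493). The C3 call was lost in 13 of 18 alternative settings (adjusted p 0.00513 to 0.410), and the C4B call in 2 of 19, with pseudocounts of 0.1 and 0.5. C4A was not called (1.21, adjusted p = 0.124) but was in 2 of 19 alternatives, with the replicate number as a block (adjusted p = 0.00225) and without siCTRL + IFNγ replicate 1 (adjusted p = 0.0413). C4A and C4B are nearly identical in sequence, so how reads were split between them is uncertain. LRP1, the receptor that clears A2M, had means of 5.30, 6.03, 5.13 and 5.16 TPM in the order siCTRL, siCTRL + IFNγ, siMITF and siMITF + IFNγ, and was not called.

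Of 24 other protease inhibitors 13 were tested, 3 were called higher in the combination and 0 lower by limma (3 lower at an unadjusted p under 0.05), with a median log2 change of 0.71. SERPING1, the inhibitor of the complement protease C1, was at most 0.0144 TPM without IFNγ, 40.6, 50.6 and 45.7 TPM with IFNγ and 88.5, 77.7 and 86.0 TPM with both. SERPINI1, an inhibitor of tissue plasminogen activator, rose from a mean of 4.32 ± 1.3 TPM in siCTRL to 20.2 ± 2.4 TPM with siMITF and 23.6 ± 3.3 TPM with both. SERPINB8 was at 7.45 and 16.4 TPM in siCTRL and the combination, a call that was lost without siMITF + IFNγ replicate 1 (log2 change 1.00). With IFNγ alone SERPING1 was called higher. With siMITF alone TFPI (log2 change 1.25), SERPINH1 (1.11) and SERPINI1 (2.01) were called higher. The interaction for SERPING1 was 0.87 (limma adjusted p = 0.0081), below the size asked of a call.

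Of 23 proteases, the enzymes that A2M and other inhibitors act on, 16 were tested, and 5 were called higher and 1 lower in the combination, with a median log2 change of 0.04. The matrix metalloproteinase MMP2 rose from a mean of 10.2 TPM in siCTRL to 33.7 TPM, and PLAT, tissue plasminogen activator, from 85.4 to 187 TPM, both also called with siMITF alone. MMP15 was at 9.77, 6.67, 49.7 and 23.1 TPM in siCTRL, siCTRL + IFNγ, siMITF and siMITF + IFNγ, so IFNγ lowered it within siMITF cells (log2 change -1.09, limma adjusted p = 0.000198), a call that was lost without siMITF + IFNγ replicate 1 (-0.91). The cathepsin CTSS rose with IFNγ and reached 37.0 TPM with both. The cathepsin CTSL was at 277, 439, 84.8 and 111 TPM in siCTRL, siCTRL + IFNγ, siMITF and siMITF + IFNγ. It was called lower with siMITF alone (log2 change -1.70, limma adjusted p = 6.4e-09). With IFNγ alone it rose by 0.66 (adjusted p = 5.4e-05), below the size asked of a call. CTSK rose from 0.772 to 2.66 TPM, a call that was lost with quantile normalization and without siCTRL replicate 3.

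Of 27 acute-phase and IL6-family signalling genes, chosen because A2M is an acute-phase protein in some species, 9 were tested, with 3 called higher and 1 lower in the combination and a median log2 change of 0.07. STAT3, the transcription factor of this pathway, rose from a mean of 31.7 TPM in siCTRL to 113 TPM with IFNγ, 45.2 TPM with siMITF and 136 TPM with both. SOCS3, a feedback inhibitor, rose from 0.942 to 14.2 TPM in the combination. The factor CEBPD, at 2.90, 10.9, 14.3 and 24.2 TPM in siCTRL, siCTRL + IFNγ, siMITF and the combination, was called with each treatment, and its combined level was 1.08 times the sum. IL6R, the receptor, fell from 47.8 to 14.8 TPM.

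Of 30 genes of peroxisomal beta-oxidation and bile acid side chain metabolism, the pathway of ACOX2, 27 were tested. None of the tested genes was called higher in any contrast by limma, while 9 were higher at an unadjusted p under 0.05 in at least 1 contrast, and 1 was called lower in the combination, with a median log2 change of 0.05. That gene was BAAT, which conjugates bile acids with amino acids. It fell from 83.9, 82.7 and 81.3 TPM in siCTRL to 12.2, 13.4 and 11.2 TPM with siMITF and was 21.8, 22.0 and 24.1 TPM with both. Within siMITF cells IFNγ raised BAAT by 0.83 on the log2 scale (limma adjusted p = 1.0e-05). Its interaction was 0.73 (adjusted p = 0.0087), and both were below the size asked of a call. CRAT rose by 0.83 with siMITF (adjusted p = 7.1e-05), also below that size. With siMITF 5 list genes were higher and 5 lower at an unadjusted p under 0.05. The paralog ACOX3 was not called, with means of 7.98, 9.0, 6.87 and 6.49 TPM in siCTRL, siCTRL + IFNγ, siMITF and siMITF + IFNγ. ACOX2 was thus below ACOX3 in siCTRL cells and above it in the combination.

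Of 30 other PLEKH genes, which like PLEKHS1 are named for a pleckstrin homology domain, 22 were tested, with 1 called higher and 1 lower in the combination and a median log2 change of -0.08. PLEKHF1 was 5.72, 5.72 and 5.34 TPM in siCTRL, 19.9, 21.8 and 18.0 TPM with IFNγ and 14.9, 17.6 and 17.8 TPM with both, so it rose with IFNγ without a further gain after knockdown. PLEKHH1 fell from a mean of 38.3 TPM in siCTRL to 14.6 TPM with siMITF and 17.9 TPM with both.

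**Figure D5:**
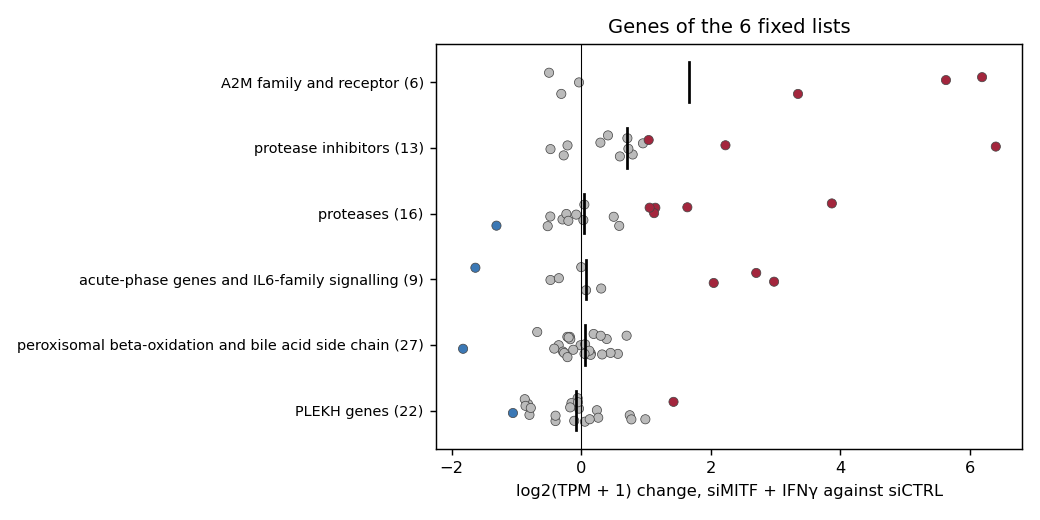
Change in log2(TPM + 1) between siMITF + IFNγ and siCTRL for the tested genes of the 6 lists (number tested in brackets), 1 point a gene, with genes called higher in red, called lower in blue, others in grey and the list's median as a black line. In the A2M family 3 of 6 genes are called higher, while in the peroxisomal list 1 of 27 is called, and it is lower.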

How the data were processed

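The values are TPM per gene and library as deposited by the authors, who trimmed reads with Trimmomatic 0.39 and quantified them with kallisto on GRCh38 (versions from the submitters' processing notes). The Ensembl release is not given in the sources used here. The authors' DESeq2 test on counts was not repeated. TPM keep no read depth, so the depth of the libraries is unknown and no counting interval or floor is given. TPM summed to 975336 to 982632 over the listed IDs in each library, and no pair of libraries was identical. The table had 0 columns left unused.

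IDs were given symbols from the reference tables (30114 of 40173). The log2(TPM + 1) of 12773 IDs in all 12 libraries was modelled in limma 3.58.1 (R 4.3.3), with 1 coefficient per condition, a mean-intensity trend and Benjamini-Hochberg adjustment over all IDs. A pseudocount of 1 understates the change of low genes between conditions, but it can move an interaction either way. With it the departure from the product rose from 0.66 to 0.95 for A2M and fell from 2.65 to 2.06 for PLEKHS1. Calls needed an adjusted p under 0.05, a log2 change of at least 1 and at least 2 TPM. The fit was tested on simulated data. The sum and the product were computed from mean TPM. Figures and tables used Python 3.11.15, numpy 2.4.6, pandas 2.3.3 and matplotlib 3.10.9.

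The members and lists were chosen with earlier results of these data known. The named genes were the members, the list genes called in the combination or the interaction, the 5 genes most correlated with each member, the 5 nearest genes on each side and overlapping genes, and MITF. LRP1, ACOX3, FAM107A, M6PR, TCF7L2, CFAP20DC, PXK, CRAT, TFPI, SERPINH1 and the genes named among the 19 others were picked after their values were seen. Some genes are not reported here. Whether the replicate numbers pair the libraries was checked on deviations from the condition means. These correlated at 0.102 to 0.625 (median 0.279) in the 18 pairs of the same number. In the 36 pairs with different numbers they correlated at -0.474 to 0.226 (median -0.196). The ranges overlapped, and deviations from the same condition mean are not independent of each other. A blocked fit was therefore run as an alternative. The others were other pseudocounts, filters and scalings, medians of TPM, and each library left out in turn.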

Additional observations from a re-analysis of the deposited data

Results flagged for a closer look

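For 2 genes of the A2M family the IFNγ effect differed between siMITF and siCTRL cells by a test of the difference itself. The interaction on the log2(TPM + 1) scale was 1.48 for C3 (limma adjusted p = 0.0493) and 1.23 for C4B (adjusted p = 0.00886), with the IFNγ rise larger in siMITF cells. Over the alternatives the adjusted p ranged from 0.00513 to 0.410 for C3 and from 0.00545 to 0.764 for C4B. In both genes all 3 siMITF + IFNγ libraries lay above the siCTRL + IFNγ libraries. The same held for the cathepsin CTSS, whose interaction was -0.0064 (limma adjusted p = 0.999). Such a separation therefore does not measure the interaction.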

How the results depend on the processing

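The departures are log2 ratios of mean TPM to the expectation, and they kept their direction in every alternative run except 1. With a pseudocount of 1, the ACOX2 departure from the product went from -1.20 to 0.072, that of A2M from 0.66 to 0.95, and the PLEKHS1 departure from the sum from 3.67 to 2.07. A pseudocount pulls low values towards each other by construction. With a mean of at least 5 TPM required, fewer IDs were tested, and the counts of calls fell from 377 to 245 for IFNγ in siMITF cells and from 61 to 32 for the interaction.

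With each library left out in turn, the A2M departure from the product ranged from 0.51 to 0.77 and from the sum from 1.95 to 2.21, that of ACOX2 from -1.32 to -1.10 and from 1.00 to 1.16, and that of PLEKHS1 from 1.63 to 3.24 and from 3.4 to 3.85. The PLEKHS1 product values came without siCTRL replicates 2 and 1. Counts of calls ranged from 774 to 788 for siMITF, 313 to 334 for IFNγ, 1112 to 1154 for the combination, 376 to 400 for IFNγ in siMITF cells, 44 to 68 for the interaction and 18 to 21 for the list genes in the combination. Where a condition kept 2 libraries, the shared spread of the fit was used. Under the replicate block, the combination had 1129 calls and the interaction 71. The block changed 1 call of a list gene, C4A for the interaction, and no other. Low TPM limit PLEKHS1, whose control level rests on values near 0.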
